A study of Mus musculus with 6 samples.

Results

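Semaphorins are extracellular guidance proteins, and plexins and neuropilins are their receptors on the cell surface. Members were all gene symbols in the deposited tables that begin with Sema and a digit or with Plxn, together with Nrp1 and Nrp2. The rule gave 31 of 25896 symbols: 20 semaphorins, 9 plexins and both neuropilins. Values for a gene are those of 1 transcript, the one with most reads on average in the 6 libraries, and the 31 genes had 147 of the 76938 deposited transcripts. All 31 passed the filter on low counts and were tested.

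Secreted class 3 semaphorins bind a neuropilin, which pairs with a class A plexin that carries the signal into the cell. Classes 4, 5 and 6 are membrane-bound proteins, and Sema7a is held on the membrane by a lipid anchor. Plexins act on small GTPases and, through them, on the actin skeleton and on adhesion. In the hippocampus these proteins are known for guiding mossy fibres and other layered projections, for the pruning of axon branches and for setting the number and place of dendritic spines.

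Messenger RNA was sequenced from the hippocampus of male C57BL/6 mice, 3 months old, that carried Dicer1 flox/flox alleles and received tamoxifen 3 weeks before they were killed. In DICER1-ifKO mice the transgene CaMKIIa-creERT2 was added, a recombinase that tamoxifen activates and that a promoter of forebrain excitatory neurons drives. The mice labelled WT had the same floxed alleles and the same tamoxifen but no recombinase. Loss of Dicer1 and presence of an active recombinase therefore cannot be told apart, and glia, vessels and most interneurons lie outside the cells that the promoter targets. Each genotype had 3 libraries and each library pooled the RNA of 3 mice; the series states a larger number of mice per genotype than entered these libraries. In such bulk tissue, fewer cells of a type and less RNA per cell cannot be told apart.

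Dicer1, the ribonuclease that cuts microRNA precursors to their mature form, had counts of 653, 985 and 908 in WT and 896, 1134 and 1187 in DICER1-ifKO. After scaling to library size with edgeR's TMM factors (CPM) it stood at 57.8 ± 3.63 (SD, n = 3) in WT and 59.7 ± 2.82 (n = 3) in DICER1-ifKO. This is a log2 fold change, here always DICER1-ifKO minus WT, of 0.04 (SE 0.06, 95% interval -0.08 to 0.17, edgeR adjusted p = 0.849), and its sign turned with a joint correction for transcript length and GC content (-0.01). The count covers the whole transcript on chromosome 12 (GRCm38, 104687742 to 104751952), so it does not check whether the floxed part was removed.

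Total counts, summed over the 1 representative transcript of each symbol, ranged from 11832791 to 20677846 per library, of which the members took 0.153% to 0.17%. WT replicate 1, the library with the lowest total, stood apart from the others: it lay at -26.56 on the first principal component, against 1.5 to 10.06 for the other 5 libraries. Its deviations from the gene means correlated with transcript length (Spearman's rho -0.266 across 16317 genes, which share libraries and are not replicates), against -0.114 to 0.139 in the others. Of the cell type marker lists, dentate granule cell markers summed to 292 to 304 CPM in WT and 259 to 281 in DICER1-ifKO, and excitatory neuron markers to 5290 to 5430 and 5420 to 5810. Calb1, a calcium buffer listed among the 5 dentate granule cell markers, was the only marker called in any list (log2 fold change -0.27, edgeR adjusted p = 0.0323). Its 127 to 135 CPM in WT and 102 to 116 in DICER1-ifKO are a large part of the dentate sum. Each of the other dentate granule cell markers overlapped between genotypes. Sums of the 6 endothelial markers overlapped (145 to 164 against 157 to 163), as did those of the 6 oligodendrocyte markers (3500 to 4320 against 3640 to 4220). No marker was at 0 in all libraries, and the part of these differences in the results was not tested.

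The microRNAs whose precursors Dicer1 cuts pair with messages mainly through their seed, bases 2 to 8. Sites in 3 of the members' 3′ UTRs are shown as examples of the letters involved: Plxnd1 had the smallest p of the members, Sema4g the smallest among semaphorins, and Nrp2 is the neuropilin with the larger fold change. The mature sequences are from RefSeq (GRCm38.p6), written 5′ to 3′ with the seed in capitals. The sites are on the strand of the message (GRCm38), with the 7 letters that pair with the seed in capitals.
let-7c-5p: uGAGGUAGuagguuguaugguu
miR-27b-3p: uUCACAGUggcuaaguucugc
miR-132-3p: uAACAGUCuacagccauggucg
Plxnd1, let-7c site, chr6:115955369-115955391, minus strand: ccatatcccagaacaCTACCTCa
Plxnd1, miR-27b site, chr6:115955026-115955048, minus strand: aaaacttatgcaccaACTGTGAa
Plxnd1, miR-132 site, chr6:115954967-115954989, minus strand: tgacacactggaaatGACTGTTc
Sema4g, let-7c site, chr19:45003048-45003070, plus strand: gctcccatccctgtcCTACCTCa
Sema4g, miR-132 site, chr19:45003152-45003174, plus strand: ctcttgggtgaggatGACTGTTa
Nrp2, miR-27b site, chr1:62818571-62818593, plus strand: aactcgagagcttttACTGTGAt
Nrp2, miR-132 site, chr1:62817344-62817366, plus strand: ccaccagtatgtccaGACTGTTg
Each match is a description of letters in an annotated 3′ UTR, not evidence that the site is used.

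Levels are compared between genes only per length, as CPM divided by the length of the representative transcript in kilobases (RPKM). On that scale Sema7a was the highest member, at a mean of 35.5 over the 6 libraries, followed by the receptor subunit Nrp1 at 28.7 and by Sema6b at 22.8. The ranges of these 3 over the libraries were separate from each other and from all members below them: 32.9 to 38.1 for Sema7a, 27.6 to 29.9 for Nrp1 and 21.7 to 23.4 for Sema6b. Sema6d, a ligand of class A plexins, followed them among semaphorins at 14.5. The highest plexins were Plxna1 (16.2), Plxna2 (11.9) and Plxna4 (9.93), all class A receptors, and Nrp2 stood at 13.0 among them. From Plxna1 down to Plxnb2, 13 genes between 16.2 and 7.72, each gene overlapped the next in rank, so the order of neighbours is not resolved. Genes further apart in that stretch could be separate, as Plxna1 (14.6 to 18.2) was from Plxna2 (10.8 to 13.4).

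The 5 lowest members were all secreted class 3 semaphorins: Sema3d (1.2), Sema3f (0.762), Sema3g (0.736), Sema3b (0.482) and Sema3a (0.455). Sema3a, the classical repellent of growing axons, ranged from 0.425 to 0.486, on counts of 33 to 59 per library. The other class 3 genes stood higher, Sema3c at 3.89 and Sema3e, which signals through Plxnd1 without a neuropilin, at 11.1. Plxnd1 itself had the lowest level of the 9 plexins, 4.45, with the range of Plxna3 (4.23 to 5.26) inside its own of 3.78 to 5.42. The members as a group did not stand apart in level, with a median of 7.72 against 7.73 for 16317 tested genes with a known length, and 15 of 31 lay above that value.

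**Figure D1:**
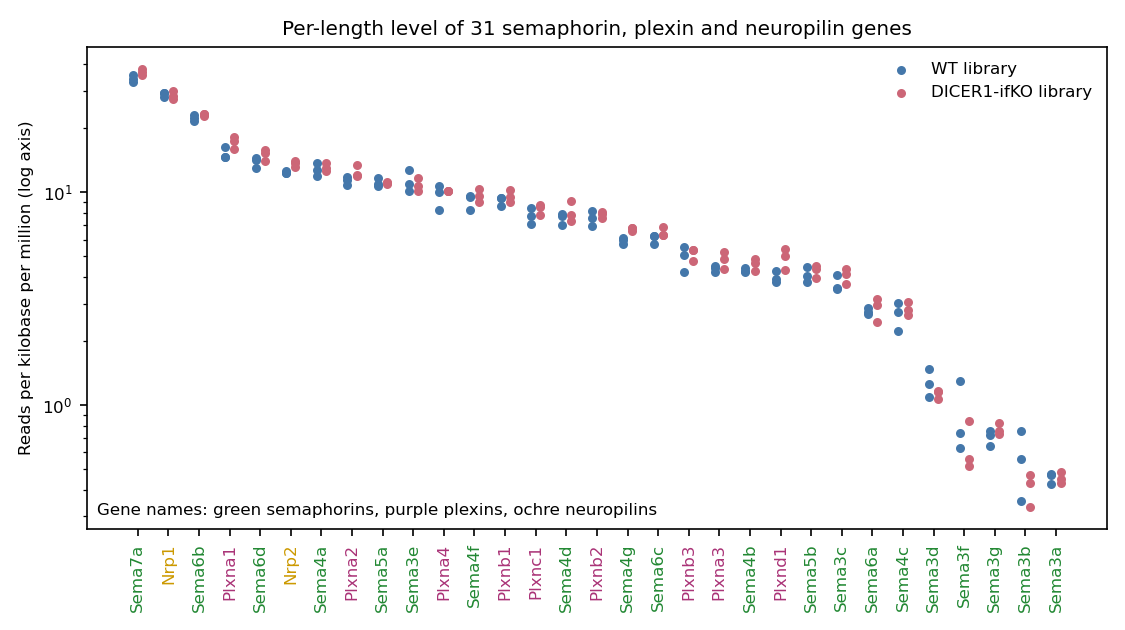
RPKM (log axis) of the 31 members in each of 3 WT (blue) and 3 DICER1-ifKO (red) libraries, 1 point per library, with genes ordered by their mean. Sema7a, Nrp1 and Sema6b are separate at the top, the 5 lowest genes are class 3 semaphorins, and the colours overlap for most genes.

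Between genotypes, no member was called by edgeR at an adjusted p below 0.05 (0 of 31). Over all 17405 genes tested, which set the adjustment, 28 or 0.161% were called, 0.126% higher and 0.0345% lower in DICER1-ifKO. DESeq2 also called 0 members, with the same 0.161% of all genes. At an unadjusted p below 0.05 edgeR gave 7 members, all with a positive log2 fold change, against 10.4% of all genes (5.63% positive). DESeq2 gave 5 members at that level, against 6.32% of all genes. The log2 fold change was positive in 25 of the 31 members, against 49.0% of all genes, and its median was 0.07, from -0.53 (Sema3f) to 0.3 (Plxnd1). The 3 values of each genotype did not overlap in 5 members, all higher in DICER1-ifKO, where 16.1% of all genes had no overlap (7.99% higher and 8.07% lower). As 5 of 31 is the same 16.1%, non-overlap was no more frequent among the members than among all genes, apart from its direction.

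**Figure D2:**
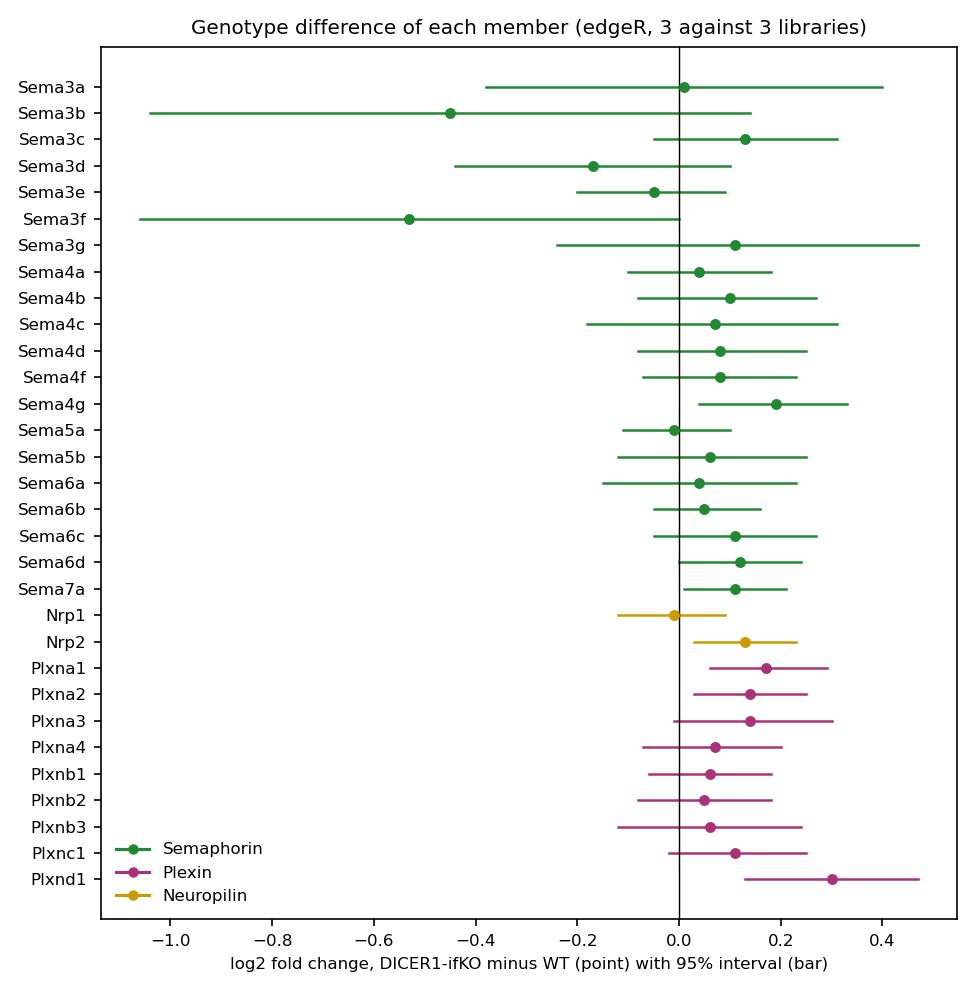
The log2 fold change of each member, DICER1-ifKO minus WT (point), with its 95% interval from edgeR's quasi-likelihood fit (bar, 3 against 3 libraries), in semaphorins, neuropilins and plexins. All 9 plexins lie above 0 by 0.05 to 0.3, and the widest intervals are those of the low class 3 semaphorins.

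Among the secreted ligands, Sema3f and Sema3b had the 2 lowest fold changes of all members. Sema3f, which binds Nrp2 and is known for restraining spines and pruning axons, had counts of 25, 40 and 71 in WT and 44, 34 and 36 in DICER1-ifKO. WT replicate 3 was higher than every other library, and the other 5 overlapped. The means were 3.00 ± 1.2 CPM and 2.17 ± 0.601 (SD, n = 3 each), with a log2 fold change of -0.53 (SE 0.25, edgeR adjusted p = 0.48). Without WT replicate 3 the value was -0.14 (adjusted p = 0.913). Sema3b, which lies 72.3 kb from Sema3f on chromosome 9, had counts of 21, 18 and 39 in WT and 23, 19 and 28 in DICER1-ifKO. It too was highest in WT replicate 3, and its log2 fold change of -0.45 (SE 0.28, adjusted p = 0.634) was -0.13 without that library and -0.71 without WT replicate 2. The same library had the highest sums of choroid plexus markers (39.6 CPM over the 4 listed, of which 2 passed the filter, against 20.2 to 34.2 in the others) and of mural cell markers (102 against 85.7 to 96.7). It was also the highest for markers of oligodendrocytes (4320), endothelial cells (164) and dentate granule cells (304). The part of these cells in the 2 semaphorins was not tested.

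The other class 3 genes had log2 fold changes of -0.17 (Sema3d) to 0.13 (Sema3c). Both moved when single libraries were left out: Sema3d was at -0.04 without WT replicate 2 and at -0.28 without WT replicate 3. Sema3c was at 0.07 without DICER1-ifKO replicate 2, at 0.2 without DICER1-ifKO replicate 3 and at 0.21 without WT replicate 2. Sema3c, a ligand of both neuropilins, stood at 19.2, 22.4 and 19.4 CPM in WT and 22.7, 24.0 and 20.4 in DICER1-ifKO, which overlap. Sema3a was at 2.70 ± 0.158 and 2.70 ± 0.167 CPM (SD, n = 3 each), and its wide interval of -0.38 to 0.40 shows how little its counts can resolve. Sema3e, at 77.4 ± 8.58 and 74.5 ± 5.07 CPM, had an interval of -0.20 to 0.09. Of the 7 class 3 genes, 3 had a positive value and 4 a negative one, with a median of -0.05 against 0.07 over all members.

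The membrane-bound ligands had mostly positive, small values. All 6 class 4 genes were positive (median 0.08), as were all 4 of class 6 (median 0.08), while class 5 gave -0.01 for Sema5a and 0.06 for Sema5b. Sema4g, a transmembrane class 4 protein, stood at 27.8, 27.1 and 25.9 CPM in WT and 30.0, 30.9 and 30.9 in DICER1-ifKO. The genotypes did not overlap, and the libraries of each lay close together. Its log2 fold change was 0.19 (SE 0.07, 95% interval 0.04 to 0.33, unadjusted p = 0.0126, edgeR adjusted p = 0.322), and 0.15 with a correction for transcript length and GC content.

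Sema6d stood at 87.4, 80.1 and 89.2 CPM in WT and 95, 98.1 and 86.4 in DICER1-ifKO. DICER1-ifKO replicate 3 lay inside the WT range, and the log2 fold change was 0.12 (SE 0.06, edgeR adjusted p = 0.469). Without WT replicate 2 it was 0.07. Sema6c, whose genotypes also did not overlap, had 24.5, 24.5 and 22.4 CPM in WT and 24.9, 24.8 and 27.1 in DICER1-ifKO. The gap between the genotypes was small beside the spread within each, and its interval of -0.05 to 0.27 included 0. Its log2 fold change of 0.11 was 0.06 without WT replicate 3, without DICER1-ifKO replicate 3, or with length and GC content offset. Sema6b, the third highest member per length, was at 83.5 ± 2.62 and 86.7 ± 0.858 CPM (log2 fold change 0.05, interval -0.05 to 0.16). Sema7a, a ligand of Plxnc1 and of integrins, stood at 109, 112 and 117 CPM in WT and 126, 122 and 117 in DICER1-ifKO. WT replicate 3 and DICER1-ifKO replicate 3 met at 117, and the log2 fold change was 0.11 (SE 0.05, edgeR adjusted p = 0.453).

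Every one of the 9 plexins had a log2 fold change above 0 (median 0.11), and 3 of them had an unadjusted p below 0.05. Plxnd1, a receptor best known from blood vessels and from synapse formation, gave the smallest p of all members. It lies on chromosome 6 (GRCm38, 115954811 to 115995005, minus strand). Its counts were 307, 428 and 478 in WT and 533, 674 and 612 in DICER1-ifKO, or 26.1, 26.9 and 29.4 CPM against 34.6, 37.4 and 29.9. DICER1-ifKO replicate 3 lay only just above the highest WT library, and the other DICER1-ifKO libraries lay well above it. The log2 fold change was 0.30 (SE 0.08, 95% interval 0.13 to 0.47, unadjusted p = 0.00155, edgeR adjusted p = 0.171), a fold of 1.23, and DESeq2 gave an adjusted p of 0.241. Over the alternatives its value ranged from 0.2 to 0.39 and its adjusted p from 0.0327 to 0.568. It was called without the filter on low counts (0.30, adjusted p = 0.0327) and without DICER1-ifKO replicate 3 (0.39, adjusted p = 0.0499), and in no other alternative. Of the 6 endothelial markers 0 were called by edgeR or DESeq2 and 0 had an unadjusted p below 0.05 in edgeR, but 4 had positive values and their median was 0.09, above that of the members. Among the listed vascular co-receptors, Kdr was at 0.16 (edgeR adjusted p = 0.621) and Flt1, itself among the 6 endothelial markers, at 0.10 (adjusted p = 0.632). The part of vessel cells in the value of Plxnd1 was not tested.

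The class A plexins, which carry the signal of class 3 and class 6 ligands, had values of 0.07 to 0.17. Plxna1 stood at 133, 148 and 132 CPM in WT and 157, 144 and 164 in DICER1-ifKO. WT replicate 2 was above DICER1-ifKO replicate 2, so the genotypes overlapped. Its log2 fold change was 0.17 (SE 0.06, unadjusted p = 0.00569, edgeR adjusted p = 0.255). Of its exonic bases, 10.74% lie in exons of a gene on the opposite strand, and whether reads of that strand were counted is not known. Plxna2, the receptor known from mossy fibre lamination, stood at 119, 130 and 126 CPM in WT and 133, 147 and 134 in DICER1-ifKO. Its genotypes did not overlap, with a log2 fold change of 0.14 (SE 0.05, edgeR adjusted p = 0.327), or 0.09 without DICER1-ifKO replicate 2. Plxna3, which pairs with Nrp2, was at 30.4 ± 0.932 and 33.5 ± 3.14 CPM (0.14, SE 0.07, adjusted p = 0.519). Its value was 0.08 without DICER1-ifKO replicate 2, 0.21 without DICER1-ifKO replicate 1 and 0.08 with length and GC content offset. Plxna4 was at 107, 138 and 129 CPM in WT and at 131, 132 and 131 in DICER1-ifKO. WT replicate 1 was lowest by far, and without it the log2 fold change of 0.07 became -0.03.

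The class B plexins, receptors of class 4 semaphorins, had values of 0.05 to 0.06, all with intervals that included 0. Plxnc1, the receptor of Sema7a, was at 56.6 ± 5.05 CPM in WT and 61.0 ± 3.26 in DICER1-ifKO (SD, n = 3 each). Its interval of -0.02 to 0.25 also included 0, and its value of 0.11 was 0.05 without WT replicate 3 and 0.18 without WT replicate 2. Nrp2 stood at 84.6, 83.1 and 83.5 CPM in WT and 89.0, 91.9 and 94.1 in DICER1-ifKO. The genotypes did not overlap, and the WT libraries lay within 2 CPM of each other. Its log2 fold change was 0.13 (SE 0.05, 95% interval 0.03 to 0.23, unadjusted p = 0.014, edgeR adjusted p = 0.331). With length and GC content offset it was 0.08 (unadjusted p = 0.102). Nrp1, the other neuropilin and also a receptor of vascular growth factors, was at 104 ± 2.28 and 103 ± 4.25 CPM, with a value of -0.01 (interval -0.12 to 0.09). The difference between the 2 neuropilins in this response was not tested.

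**Figure D3:**
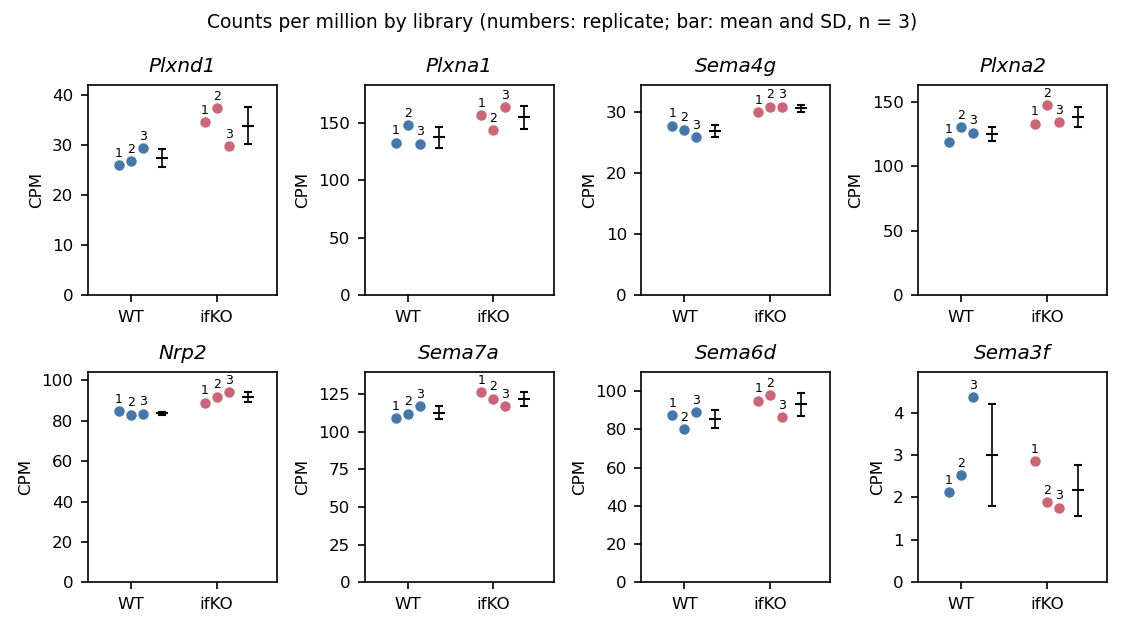
CPM in each library (numbered points, blue WT and red DICER1-ifKO) with the mean and SD of 3 libraries beside them, on axes that start at 0, for the 8 members with the smallest p. Sema3f is set apart by WT replicate 3, and the genotypes do not overlap for Plxnd1, Sema4g, Plxna2 and Nrp2.

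The members' transcripts were long, with a median of 5930 bases against 2739 for all genes tested with a length. Across those 16317 genes, longer transcripts tended to have the higher log2 fold change (Spearman's rho 0.204, and 0.11 without WT replicate 1). Across the 31 members rho was 0.305 (0.238 without that library). These are descriptions, since the genes share their libraries. With all genes divided by length into 5 groups of equal size, 18 members lay in the longest group, whose median log2 fold change was 0.04 with 68.1% positive. Another 11 lay in the next group, with a median of 0.01 and 53.4% positive. With an offset per library for length and GC content, the members' median was 0.04, against -0.0017 over all genes. Of the 31 members 20 were positive, against 49.3% of all genes. An unadjusted p below 0.05 in edgeR was found for 3 members (Plxnd1, Sema4g and Sema3f, the last negative), against 9.53% of all genes. Leaving out WT replicate 1 as well gave the members a median of 0.02, against -0.001 over all genes. Plxnd1 kept a log2 fold change of 0.22 with the offset (adjusted p = 0.375), whereas Plxna1 was at 0.09 and Plxna2 at 0.07. Without the offset, the members' median of 0.07 stood beside 0.04 for the longest genes in general. The members' 0.04 with the offset is to be set beside the -0.0017 of all genes, not beside that value of the longest genes. The offset takes out any trend with length in a library, also a trend that came with genotype. It therefore cannot tell a bias of the libraries from a difference between genotypes that follows length.

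**Figure D4:**
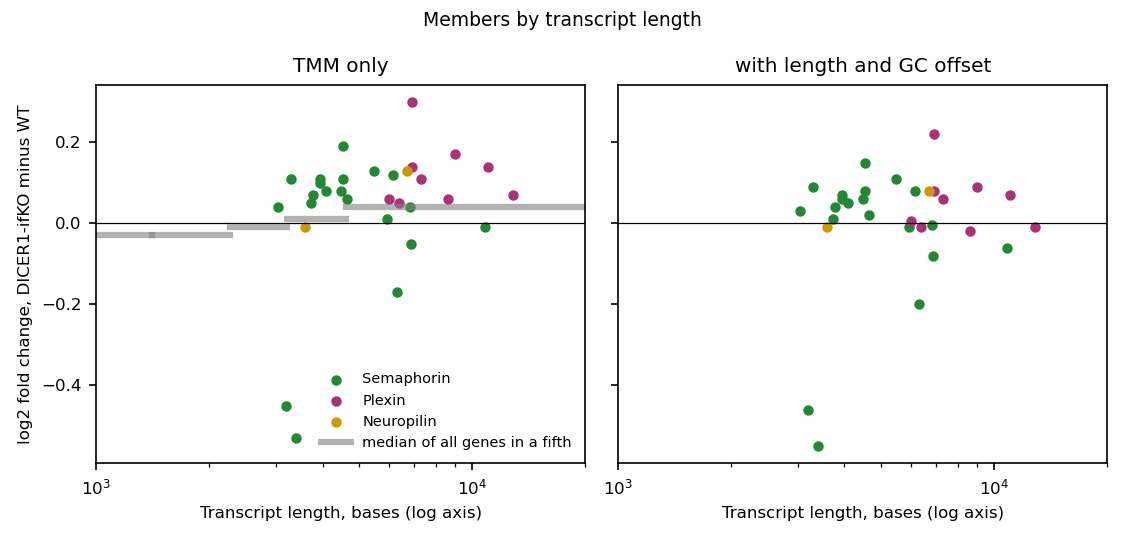
Log2 fold change of each member against transcript length in bases (log axis), with TMM scaling only (left) and after length and GC content were offset (right). Grey bars on the left are the medians of all tested genes in 5 groups by length. Most plexins, which all lie in the longest group, are nearer to 0 on the right, and Plxnd1 stays highest.

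The members had 142 transcripts that passed the filter, and edgeR called 0 of them at an adjusted p of 0.05, against 47 or 0.0777% of 60500 tested transcripts. At an unadjusted p below 0.05 edgeR gave 16, against 9.44% of all transcripts. DESeq2 called 0 and gave 7 at that level. The 9.44% is edgeR's share, and DESeq2's share over all transcripts is not given here. Transcripts of a gene share reads and are not independent. The transcripts that differed most from their gene's representative were 3 of Sema4d, a ligand of Plxnb1, and 1 of Sema3a. Sema4d-008 stood at 2.72, 1.26 and 1.54 CPM in WT and 2.6, 2.16 and 2.49 in DICER1-ifKO. WT replicate 1 was the highest of all 6, so the genotypes overlap, and the log2 fold change was 0.43 (SE 0.26, edgeR adjusted p = 0.631) against 0.07 for Sema4d-001. Sema4d-009 (0.41) and Sema4d-007 (0.41) cover nearly the same bases, and Sema3a-003 was at -0.34 on 13 to 25 reads per library. Chosen after the values were seen, Plxna1-201 stood at 0.22 (SE 0.07, adjusted p = 0.266) and was the only member transcript called when 1 library was left out (0.32, adjusted p = 0.0183 without WT replicate 2).

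Sites for 12 microRNAs known from adult forebrain were searched as the 7 letters that pair with bases 2 to 8, on the message strand only. The members' 3′ UTRs had a median of 1400 bases (264 to 6926), against 1051 for 13684 tested genes with a 3′ UTR of at least 50 bases. The let-7c site CTACCTC was present in 9 of 31 members and in 9.76% of all UTRs: Plxna2, Plxna4, Plxnc1, Plxnd1, Sema3f, Sema4b, Sema4c, Sema4f and Sema4g. The median log2 fold change was 0.10 in members with the site and 0.06 in those without it, against 0.02 and -0.01 over all genes. The miR-27b site ACTGTGA was in 8 members (16.8% of all UTRs), with medians of 0.11 and 0.06. This site shares 6 letters with that of miR-128, CACTGTG (6 members, 20.9% of all UTRs). The miR-132 site GACTGTT was in 6 members (11.7% of all UTRs), with medians of 0.10 and 0.07. For miR-9, miR-29a, miR-138 and miR-218 the members with a site had the lower median. Plxna4 had the most sites, 10 in a UTR of 6221 bases, and its value was 0.07. Among these, a miR-218 site on chromosome 6 (32145456 to 32145478, minus strand) lies beyond the end of the deposited transcript at 32145926. Nrp1, Plxna3, Sema3b, Sema3g and Sema6c had none. Longer UTRs hold more sites and belong to longer transcripts, so these medians and the trend with length cannot be told apart.

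Beyond the receptors, 53 partners of the pathway were listed and 52 tested: co-receptors, other neuropilin ligands, GTPases and their exchange factors, adaptors, MICAL enzymes, collapsin response mediators, kinases with actin regulators, and a protease. Neither edgeR nor DESeq2 called any of them (0 of 52, against 0.161% of all genes), and 6 had an unadjusted p below 0.05 in edgeR (4 in DESeq2), or 11.5% against 10.4% of all genes. Positive values were found in 31 of 52, and the median was 0.01. Farp1, an exchange factor that binds class A plexins, stood at 106, 126 and 123 CPM in WT and 137, 138 and 135 in DICER1-ifKO. WT replicate 1 was the lowest, and all DICER1-ifKO libraries were above all of WT. The log2 fold change was 0.20 (SE 0.06, edgeR adjusted p = 0.176). It was called without the filter on low counts (0.21, adjusted p = 0.0359) and without WT replicate 2 (0.25, adjusted p = 0.0478), and was 0.13 without WT replicate 1.

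Cdk5, a kinase that acts in the response to Sema3a, had the only other adjusted p below 0.2 among the partners. It stood at 94.4, 87.3 and 93.0 CPM in WT and 81.1, 79.2 and 82.4 in DICER1-ifKO, without overlap, with a log2 fold change of -0.18 (SE 0.05, edgeR adjusted p = 0.182). Gsk3b, a kinase downstream of semaphorins, was at 150 ± 5.45 and 164 ± 4.81 CPM (0.13, adjusted p = 0.312, and 0.08 with the offset). Rnd3, a GTPase of the family that binds plexins, was at 7.11 ± 0.44 and 8.63 ± 0.434 CPM (0.29, adjusted p = 0.382). The actin-severing protein gene Cfl1 (-0.10, adjusted p = 0.46, and -0.06 without WT replicate 1) and L1cam, an adhesion partner of Nrp1 (0.10, adjusted p = 0.472), completed the 6. All 3 MICAL oxidoreductase genes, which act on actin below plexins, had positive values with a median of 0.12. All 5 collapsin response mediators were positive too, with a median of 0.06. Of the 14 GTPases and exchange factors 6 were positive (median -0.01), and of the 14 co-receptors 8 were (median 0.0). Among the 9 kinases and actin regulators 5 were positive (median 0.01), as were 2 of 3 adaptors and 2 of 3 other neuropilin ligands, and the protease gene Furin was not.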

How the data were processed

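Per the submitters' processing notes, TopHat2 2.0.6 and Bowtie2 2.0.5 were used with SAMtools 0.1.18, CASAVA 1.8.2 and DESeq2, on GRCm38 or mm10; libraries came from a stranded kit, per the labels' protocols. No source used here names the read counter, its strand setting or the annotation. Per the file headers, the authors deposited a raw count and a normalised value (signal) per transcript; each library's signal values are its counts over 1 common factor, and they were not tested. The design had assumed counts per gene, so a symbol was represented by 1 transcript.

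The test was the quasi-likelihood F-test of edgeR 4.0.16 (R 4.3.3), with TMM scaling, filterByExpr at its minimum count of 10 and a prior count of 0.125. P-values were adjusted over 17405 genes by the Benjamini-Hochberg method, and 0.05 was the threshold. SE was derived from the fold change and F. DESeq2 1.42.0, another scaling, no filter, each library left out, a replicate block, a length and GC offset, and summed transcripts were alternatives. The test was tried on simulated counts in which 200 genes were changed. It called 42% of 1.25-fold changes and 78.8% of 1.5-fold changes, and 6.86% of its calls were false. Small changes can therefore go uncalled. The simulated counts held no trend with length and no outlying library, so these percentages may not carry over to the real libraries. A count of 3 equals 0.145 to 0.254 CPM.

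Lengths and 3′ UTRs came from GENCODE release M21, where 18 of the 31 representatives had the same coordinates. For 14 the transcript of the gene with the nearest span was used, with ends up to 2099 bases apart. These counts overlap, since a coding transcript of nearly the same span was preferred to a non-coding transcript with the same coordinates. Same-numbered libraries of the genotypes deviated with r of -0.086 to 0.028, and differently numbered ones with r of -0.063 to 0.128. These values gave no sign that the numbers pair the samples. Deviations from means of 3 libraries cannot exclude a pairing. Pairs of libraries within a genotype differed by more than sampling noise (chi-square per degree of freedom 1.75 to 4.35), and each counted as 1 replicate.

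The members and lists were chosen with earlier results of these data known. Named members were the 12 with the smallest unadjusted p, the 3 highest per-length semaphorins and plexins and both neuropilins; named partners were the 6 with the smallest p; named transcripts were the 4 furthest from their representative. Other members are named beside their class. miR-124 was not analysed here.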

Additional observations from a re-analysis of the deposited data

How the results depend on the processing

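Direction held in 405 of 434 member values from 14 alternatives; 29 turned, 12 of them with 1 library left out, and 18 members kept their direction throughout. Leaving out 1 library gave 6 to 105 called genes in all, against 28, 0 to 1 members, 0 to 1 partners and 0 to 1 member transcripts; the members' median ranged from 0.05 to 0.10 and the partners' from 0.01 to 0.05. The 105 came without WT replicate 2 and the 6 without DICER1-ifKO replicate 1. Without a filter on low counts, 151 genes, 1 member (Plxnd1) and 1 partner (Farp1) were called. Counts summed over transcripts gave 7 genes, and Sema3a was at -0.12. The replicate block gave 22 genes and 0 members, and with the length and GC offset 15 genes. Whether the numbers pair the samples is not known. The members' median was 0.04 with the offset and 0.02 with the offset and without WT replicate 1. Turned values with the offset were Plxna4 -0.01, Plxnb1 -0.02, Plxnb2 -0.01, Sema3a -0.01, Sema6a -0.0046 and Dicer1 -0.01, and with offset and block Plxna4 -0.0032, Plxnb1 -0.02, Plxnb2 -0.01, Sema3a -0.02, Sema6a -0.01 and Dicer1 -0.01. With the offset and without WT replicate 1 they were Nrp1 0.0018, Plxna4 -0.05, Plxnb1 -0.03, Plxnb2 -0.05, Sema4c -0.06 and Sema4f -0.02. With 1 library left out, ranges that crossed 0 were Nrp1 -0.05 to 0.01, Plxna4 -0.03 to 0.15, Plxnb3 -0.05 to 0.16, Sema3a -0.05 to 0.05, Sema3e -0.12 to 0.04, Sema4a -0.02 to 0.09, Sema4c -0.03 to 0.16, Sema4d -0.0026 to 0.15, Sema5a -0.03 to 0.03 and Sema6a -0.03 to 0.14. The cause of these turns was not tested. No alternative was left out. Depth limits Sema3a, Sema3b, Sema3f and Sema3g most, on 18 to 71 reads per library.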
